A study of Ciona robusta with 15 samples.

Results

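Embryos of the ascidian Ciona robusta that received the T-box factor Bra together with the homeodomain factor Mnx were compared with embryos that received Bra without Mnx. The comparison uses 6 of the 15 RNA libraries of the series, 3 Bra+Mnx and 3 Bra, chosen by their labels and paired by replicate number. The Bra group carried the plasmid Etr1>Venus-Bra and the Bra+Mnx group carried Etr1>Venus-Bra with Etr1>Mnx-HA. The control group, with 3 libraries, carried Etr1>H2B-Venus. The Bra+Foxa.a group, also 3 libraries, carried Etr1>Venus-Bra with Etr1>Foxa.a-Myc, and the Bra+Foxa.a+Mnx group of 3 carried all of Etr1>Venus-Bra, Etr1>Foxa.a-Myc and Etr1>Mnx-HA. These last groups are used here as reference points. In every group the plasmid was electroporated into fertilised eggs and expressed from the Etr enhancer, which is active in neural cells, and every group carried a Venus tag or reporter. Each library is whole-embryo RNA of a pool of 300 embryos raised at 21 °C to Hotta stage 19.5. No group had Mnx without Bra, so the comparison shows the change on adding the Mnx plasmid to Bra and not what Mnx does by itself. As listed, Bra+Mnx embryos carried Etr1>Mnx-HA in addition to the plasmid of the Bra embryos. An effect of an added Etr1 plasmid cannot be told apart from an effect of Mnx here.

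Bra is the founding T-box factor of the notochord, the axial rod of the chordate tail. It switches on the genes of notochord differentiation. Mnx is a homeodomain factor best known in vertebrates for its role in motor neurons, and Foxa.a is a forkhead factor active in the notochord, endoderm and floor plate lineages. The groups address what Bra does in neural tissue alone and with either or both partners.

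The Bra and Bra+Mnx libraries held 17689915 to 24176680 recovered reads each, over 15284 gene models, of which 14260 were tested. Values are normalised reads, that is, recovered reads divided by a library size factor on 1 scale rebuilt across the deposited tables. Differences are on the scale log2(normalised reads + 1), where fold changes of genes at low read numbers come out too small, and are given with their standard error. Adjusted p-values are from limma with the replicate number as a term and Benjamini-Hochberg adjustment over all genes tested. A gene is called at an adjusted p under 0.05. Genes carry KH model identifiers in the files. The 16 gene names used here were written beside their identifiers by hand and were not checked against an annotation, and the other models are given by identifier only. The series describes its samples as triplicates of a biological kind without saying which egg batches they came from. The p-values therefore speak of the variation among these 15 samples alone, technical variation included. Bulk RNA cannot tell fewer cells of a type from less RNA per cell.

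Mnx (KH.L128.12) shows whether the libraries match their labels. It stood at 366, 448 and 403 normalised reads in Bra replicates 1, 2 and 3, and at 1468, 1453 and 2950 in the same-numbered Bra+Mnx libraries. The groups did not overlap, and Bra+Mnx replicate 3 was the highest by a wide margin. The difference was 2.19 ± 0.19 on the log2 scale, or 4.56-fold (adjusted p = 1.01e-05, higher in 3 of 3 pairs). Across the series the 6 libraries given Mnx ranged from 1453 to 2950 and the 9 not given it from 224 to 569. Plasmid and endogenous transcripts are counted together, so these values are totals.

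Bra (KH.S1404.1), given to both groups, was at 963, 1449 and 798 normalised reads in the Bra libraries and at 1083, 1279 and 1243 in Bra+Mnx. The groups overlapped, and the difference of 0.21 ± 0.11 was not called (adjusted p = 0.456). It was lower with Mnx in pair 2 and higher by 0.64 in pair 3. Foxa.a (KH.C11.313) was not electroporated in either group. It stood at 6792, 8334 and 6531 in Bra and at 8036, 7698 and 9953 in Bra+Mnx (log2 difference 0.25 ± 0.10, adjusted p = 0.30), again with overlapping groups. Pair 3 had the largest difference of the 3 pairs in each of these genes, and results that moved when one of its libraries was left out are given below with the value without it.

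**Figure D1:**
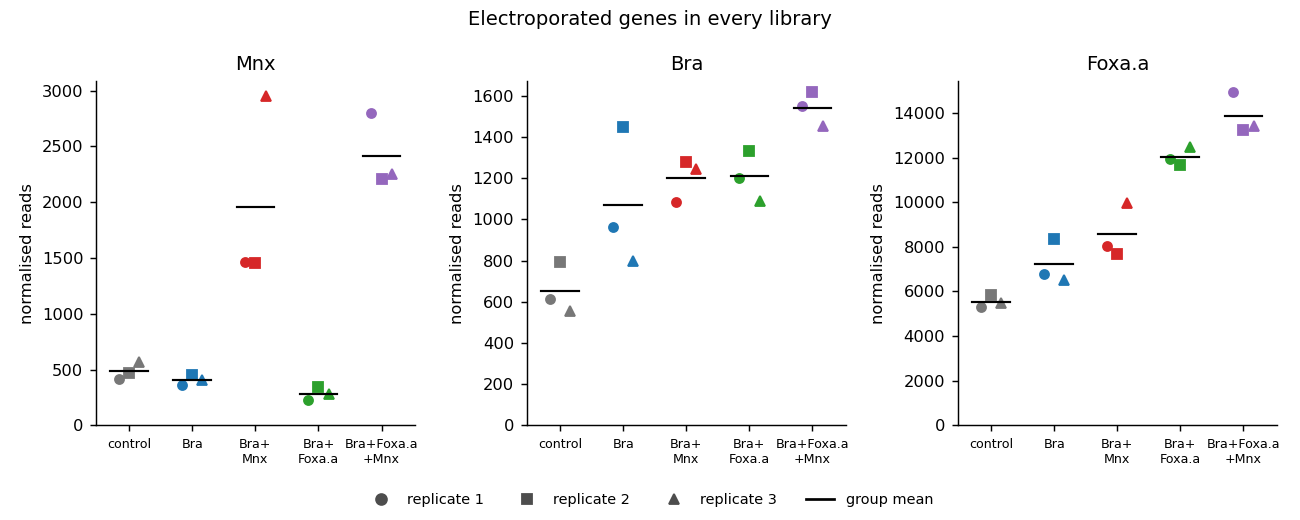
Normalised reads (y axis, linear, from 0) of Mnx, Bra and Foxa.a in every library of the 5 groups (x axis). Symbols mark the replicate number and lines the group means. Mnx separates the 6 libraries given it (1453 to 2950) from the other 9, while Bra overlaps between the Bra and Bra+Mnx groups.

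Adding Mnx to Bra raised 70 gene models, Mnx included, and lowered 119, which is 0.491% and 0.835% of those tested and 1.33% together. Most changes were moderate. Of the genes that rose, 28 did so at least 2-fold and 6 at least 4-fold, with a median log2 difference of 0.78. Of those that fell, 36 did so at least 2-fold and 5 at least 4-fold, with a median of -0.65, and 58 fell by less than 1.5-fold. A mean of at least 100 normalised reads over the 6 libraries was reached by 98 of the 119 (82.4%) and 49 of the 70 (70.0%), where 67.3% of all genes tested reached it. No called gene was at 0 in all Bra libraries. In 44 of the 70 and 69 of the 119 the 2 groups did not overlap, where 2.44% and 2.98% of all genes tested were separated in those directions, or 5.42% together. All 189 moved in 1 direction in the 3 pairs, as did 30% of all genes tested. The calls were chosen for such differences, so this is a description of them.

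The count rests on the pairing. Same-numbered Bra and Bra+Mnx libraries deviated together from their group means, and without the replicate number as a term limma called 2 genes higher and 2 lower. Those 4 are among the 189 and include Mnx. The counts also moved with single libraries. Without Bra replicate 1, 20 genes were higher and 64 lower, and without Bra replicate 2, 44 and 52. Without Bra replicate 3 they were 35 and 93, without Bra+Mnx replicate 2, 23 and 54, and without Bra+Mnx replicate 3, 13 and 65. Leaving out Bra+Mnx replicate 1 gave 82 and 112.

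**Figure D2:**
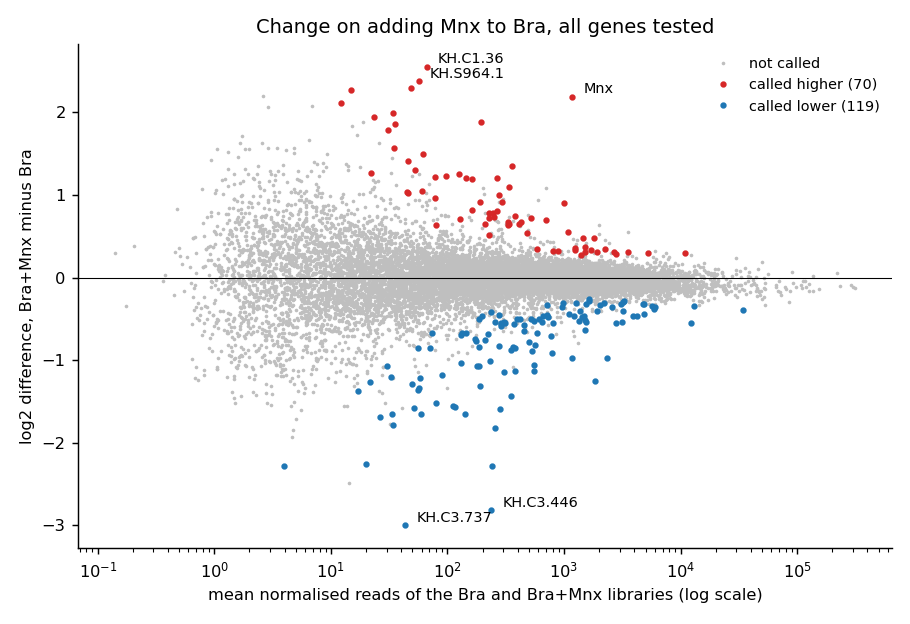
Log2 difference, Bra+Mnx minus Bra (y axis), against the mean normalised reads of the 6 libraries (x axis, log scale) for all genes tested. Red points are the 70 genes called higher, blue points the 119 called lower and grey points the rest. The largest changes lie between about 2 and 3 on the log2 scale in either direction.

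The gene models with the largest changes are given in every library. KH.C1.36 had 9.29, 10.5 and 45.3 normalised reads in Bra replicates 1 to 3 and 89.2, 67.4 and 178 in Bra+Mnx. It rose in all 3 pairs, with no overlap, by 2.55 ± 0.41 (adjusted p = 0.00396). Replicate 3 was the highest library in both groups, and in control embryos the model was near silent, at 0.881, 0 and 0. Without the replicate number as a term its call ended (adjusted p = 0.760).

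KH.S964.1 was at 18.6, 17.5 and 15.8 normalised reads in Bra and at 106, 68.4 and 113 in Bra+Mnx. Its Bra libraries were close together and all Bra+Mnx libraries were well above them (2.38 ± 0.29, adjusted p = 3.06e-04, and 0.0316 without the replicate term). It was at 3.52, 4.20 and 6.63 in control.

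The largest falls were of gene models high in Bra embryos. KH.C3.446 stood at 341, 302.5 and 619 normalised reads in Bra and at 52.7, 64.4 and 51.1 in Bra+Mnx. This is a fall of 2.82 ± 0.29 on the log2 scale (adjusted p = 8.13e-05, and 0.0136 without the replicate term), lower in 3 of 3 pairs. In control embryos it stood at 39.65, 57.7 and 121.5, a range that covers the Bra+Mnx libraries. KH.C3.737 went from 38.1, 65.2 and 130 in Bra to 2.55, 10.1 and 15.8 in Bra+Mnx, a difference of -3.00 ± 0.42 (adjusted p = 0.00112, and 0.251 without the replicate term). Its control libraries were at 4.41, 6.30 and 9.94. In both models the Bra+Mnx group thus overlapped control, and the comparison of Bra+Mnx with control gave log2 differences of -0.23 ± 0.29 and 0.20 ± 0.42 (adjusted p = 0.712 and 0.837).

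**Figure D3:**
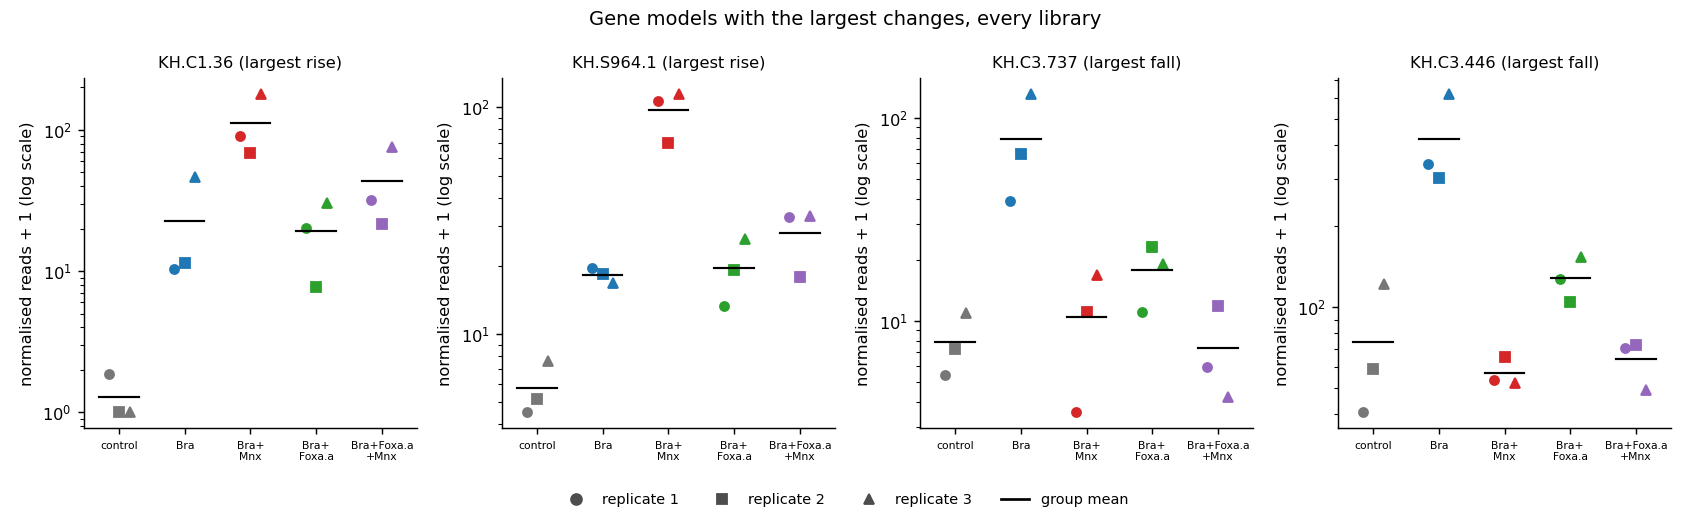
Normalised reads + 1 (y axis, log scale) of the 2 gene models with the largest rises and the 2 with the largest falls, in every library of the 5 groups (x axis). Lines are group means. KH.C1.36 and KH.S964.1 are highest in Bra+Mnx, and KH.C3.737 and KH.C3.446 are highest in Bra.

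Among genes of known tissues, 2 of the 7 listed neural genes fell and none rose, where 0.835% of all genes tested fell and 0.491% rose. All 7 had a negative difference, as did 49.8% of all genes tested. Their median was -0.41 against 0.00 over all genes tested, and 20 of their 21 same-numbered differences were below 0. The medians of all genes tested within the pairs lay between -0.0027 and 0.0165. The 7 genes were read in the same 3 pairs, so the 21 differences are not independent. The list was chosen with earlier results of these data known. Msx (KH.C2.957), a homeodomain factor of the neural plate border and dorsal epidermis, was at 1100, 1871 and 1713 normalised reads in Bra and at 836, 1504 and 1194 in Bra+Mnx. The groups overlapped because replicate 1 was low in both, while every pair fell (-0.41 ± 0.09, adjusted p = 0.0239).

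Ebf (KH.L24.10), which drives neuronal differentiation, was at 443, 497 and 442 in Bra and at 334, 335 and 307 in Bra+Mnx. The groups did not overlap (-0.50 ± 0.12, adjusted p = 0.0425), but the call ended with TMM factors (adjusted p = 0.0502) and with no filter on low values (0.0588). The 5 others did not pass. Tyr (KH.C12.469) encodes tyrosinase, which makes melanin in the pigment cells of the brain, and differed by -0.60 ± 0.16 (adjusted p = 0.0765). It passed with DESeq2 (adjusted p = 0.0173) and in limma on the 6 libraries alone (0.00126). It did not pass with edgeR (0.0502) or with TMM factors in limma (0.0858). Pou4 (KH.C2.42), a factor of sensory neurons, differed by -0.48 ± 0.13 (adjusted p = 0.0996). Its 3 pairs lay between -0.50 and -0.46, but its groups overlapped.

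Otx (KH.C4.84), which patterns the front of the brain, differed by -0.31 ± 0.08 (adjusted p = 0.0796, and 0.0436 with DESeq2) with groups that did not overlap. It did not pass with edgeR (0.072) or in limma on the 6 libraries alone (0.107). The proneural factor Neurog (KH.C6.129) differed by -0.20 ± 0.11 (adjusted p = 0.484). Islet (KH.L152.2), a LIM-homeodomain factor of motor neurons among other cells, differed by -0.14 ± 0.16 (adjusted p = 0.754), with pair 3 above 0.

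Celf3/4/5/6 (KH.C6.128) fell as well. It encodes a neural RNA-binding protein, is also known as Etr, and is the gene whose enhancer drove the plasmids. It was at 5357, 6337 and 5255 normalised reads in Bra and at 4360, 4288 and 3800 in Bra+Mnx, with every Bra+Mnx library below every Bra library. The difference was -0.44 ± 0.09, a 1.36-fold fall (adjusted p = 0.0167). In control embryos it was at 8429, 9958 and 10180, so the level was highest in control, lower in Bra and lowest of the 3 groups in Bra+Mnx. Whether the level of the endogenous driver gene moves with the output of the plasmids was not tested.

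Of the genes of other tissues, Nkx2-5 (KH.C8.482), a homeodomain factor of the heart lineage, fell from 2088, 2584 and 1920 normalised reads in Bra to 1697, 1787 and 1482 in Bra+Mnx. The groups did not overlap (-0.40 ± 0.09, adjusted p = 0.0388), but the call ended with no filter on low values (0.0523). It was 1 of the 3 cardiac genes to pass, where 0.835% of all genes tested were called lower, and the median of the 3 was -0.13. Hand-r (KH.C1.1116), a bHLH factor of the same lineage, differed by 0.01 ± 0.08 and the forkhead factor Foxf (KH.C3.170) by -0.13 ± 0.08 (adjusted p = 0.956 and 0.539).

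Mrf (KH.C14.307), the myogenic bHLH factor of tail muscle, was lower in all 3 pairs without overlap, but the difference of -0.39 ± 0.10 did not pass (adjusted p = 0.0750). It passed with DESeq2 (0.0347) and in limma on the 6 libraries alone (0.0260). It did not pass with edgeR (0.0661) or with TMM factors in limma (0.0878). Tbx2/3 (KH.L96.87), the 1 notochord gene with a listed identifier, belongs to the T-box family like Bra. It was at 2725, 3861 and 2800 in Bra and at 2945, 3280 and 3395 in Bra+Mnx. Its groups overlapped and the difference was 0.05 ± 0.08 (adjusted p = 0.824). In all, 1 of the 16 named genes rose, which was Mnx itself, and 4 fell, against 0.491% and 0.835% of all genes tested.

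The calls of the 4 falls among the named genes depended on the pairing and on single libraries, while their sizes moved less. Without the replicate number as a term the differences were the same, at an adjusted p of 0.916 to 1.00. With 1 library or replicate number left out they lay between -0.60 and -0.31. Ebf lost its call without any 1 library but Bra+Mnx replicate 1 (highest adjusted p = 0.211). Celf3/4/5/6 lost it when replicate 1 or 2 of Bra, or 2 or 3 of Bra+Mnx, was left out (at most 0.114), as did Nkx2-5 (at most 0.238). Msx lost it without any Bra library or without Bra+Mnx replicate 3 (highest 0.146). Otx (adjusted p = 0.0260) and Mrf (0.0295) passed without Bra+Mnx replicate 1.

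**Figure D4:**
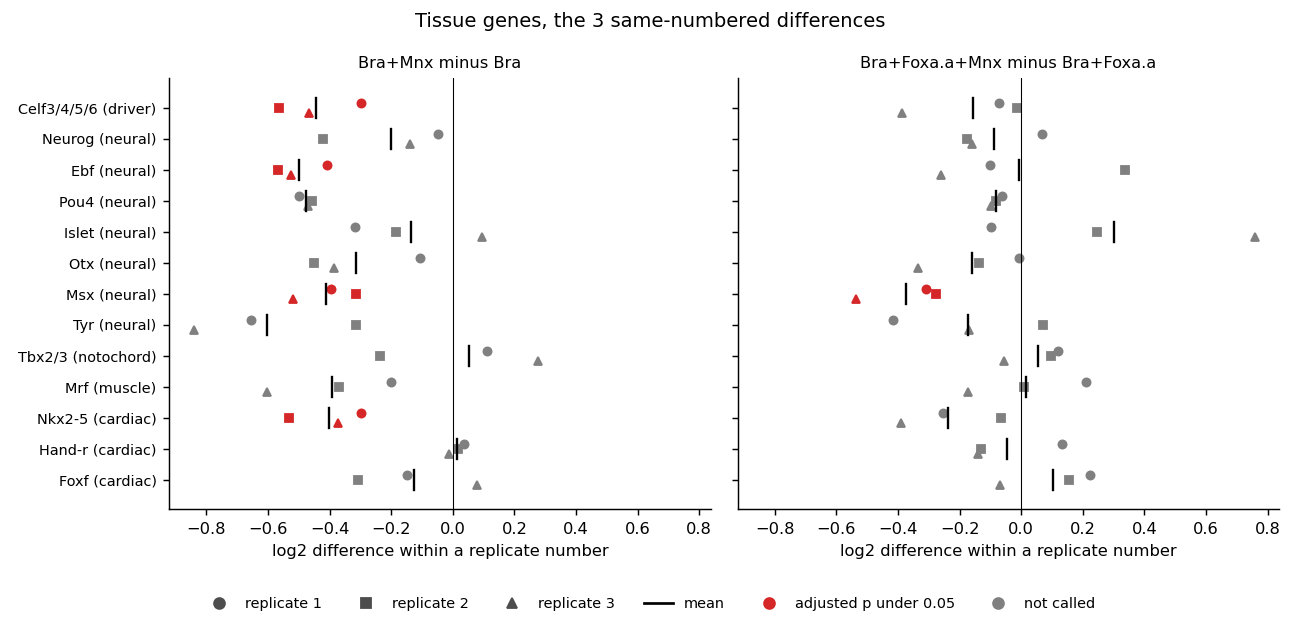
Log2 differences within each replicate number (x axis) for the driver gene and the neural, notochord, muscle and cardiac genes (y axis). The left panel shows Bra+Mnx minus Bra and the right panel Bra+Foxa.a+Mnx minus Bra+Foxa.a. Vertical ticks are means and red marks genes with an adjusted p under 0.05: 4 in the left panel, and Msx in the right.

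The change with Mnx was then read in other libraries, by comparing Bra+Foxa.a+Mnx with Bra+Foxa.a. The differences of the 2 comparisons share no library, but their calls share 1 estimate of each gene's spread, from the fit over all 15 libraries, so the shared calls are not independent. Of the 70 genes that rose with Mnx on Bra, 63 were also higher with Mnx when Foxa.a was present, 53 of them in all 3 pairs, and 18 were called higher. That is 25.7% of the 70, where 0.386% of all genes tested were called higher and 2.17% were called in either direction. Mnx itself, supplied by the plasmid, is among the 70 and the 18. Of the 119 that fell, 110 were lower, 101 in all 3 pairs, and 64 were called lower, or 53.8% against 1.79% of all genes. By sign alone 54.2% of all genes were higher and 45.8% lower in that comparison, and 15.4% were higher and 14.1% lower in all 3 pairs. No gene was called in opposite directions in the 2 comparisons. When each comparison was fitted on its own 6 libraries, a setting added after seeing the data in which no spread is shared, 51 of 134 rising genes (38.1%) and 114 of 198 falling genes (57.6%) were shared. In those fits 0.926% and 3.54% of all genes were called higher and lower with Foxa.a, and 5 genes were called in opposite directions. Each of them left only 2 residual degrees of freedom. Without Foxa.a they called again 57 of the 70 rising and 100 of the 119 falling genes.

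Seen from the other side, the 18 and 64 shared calls made up 32.7% and 25.1% of the genes called higher and lower in the libraries with Foxa.a. When a library was left out, the calls of both comparisons were made anew. The number of shared higher calls dropped to 10, 9, 10 and 8 without Bra replicate 1, Bra replicate 3, Bra+Mnx replicate 2 and Bra+Mnx replicate 3. The shared lower calls dropped to 34 without Bra replicate 2 and 40 without Bra+Mnx replicate 2. Without the replicate term 1 gene was shared in each direction, and the shared higher gene was Mnx itself, which the plasmid supplied.

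The median log2 difference of the 119 fallen genes was -0.55 with Foxa.a, beside -0.65 in the libraries that chose them. That of the 70 risen genes was 0.39, beside 0.78. The medians over all genes were 0.01 and 0.00. Mnx itself rose by 3.11 ± 0.19 with Foxa.a, from a lower start (224, 343 and 278 normalised reads). The difference from its rise without Foxa.a was 0.92 ± 0.27 and did not pass (adjusted p = 0.457), so a larger rise with Foxa.a is not shown.

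The gene models with the largest changes had smaller estimates where Foxa.a was present. They were chosen for the size of their differences without Foxa.a, so smaller estimates in other libraries can come from that choice alone. KH.S964.1 was at 12.3, 18.2 and 25.2 normalised reads in Bra+Foxa.a and at 31.9, 17.0 and 32.2 in Bra+Foxa.a+Mnx, overlapping groups (0.52 ± 0.29, adjusted p = 0.629). KH.C1.36 differed by 1.16 ± 0.41 (adjusted p = 0.25), higher in 3 of 3 pairs. KH.C3.446 differed by -1.01 ± 0.29 (adjusted p = 0.0935), with groups that did not overlap, and KH.C3.737 by -1.34 ± 0.42 (adjusted p = 0.148). The tests of the differences between the 2 backgrounds did not pass for these models (adjusted p = 0.174, 0.737, 0.202 and 0.649 in the same order).

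Of the named genes with a fall on Bra, Msx fell also with Foxa.a (-0.37 ± 0.09, adjusted p = 0.0264). Ebf differed by -0.01 ± 0.12, Celf3/4/5/6 by -0.16 ± 0.09 and Nkx2-5 by -0.24 ± 0.09, and none of these passed (adjusted p = 0.996, 0.634 and 0.325). The 7 neural genes had a median of -0.09 there, and 16 of their 21 same-numbered differences were below 0. The difference between the backgrounds was 0.49 ± 0.17 for Ebf, 0.29 ± 0.12 for Celf3/4/5/6 and 0.16 ± 0.13 for Nkx2-5 (adjusted p = 0.604, 0.747 and 0.949), so a weaker effect with Foxa.a is not shown. Across all genes tested, 1 gene passed the test of that difference, which is 0.00701% of them, and 886 (6.21%) had an unadjusted p under 0.05.

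**Figure D5:**
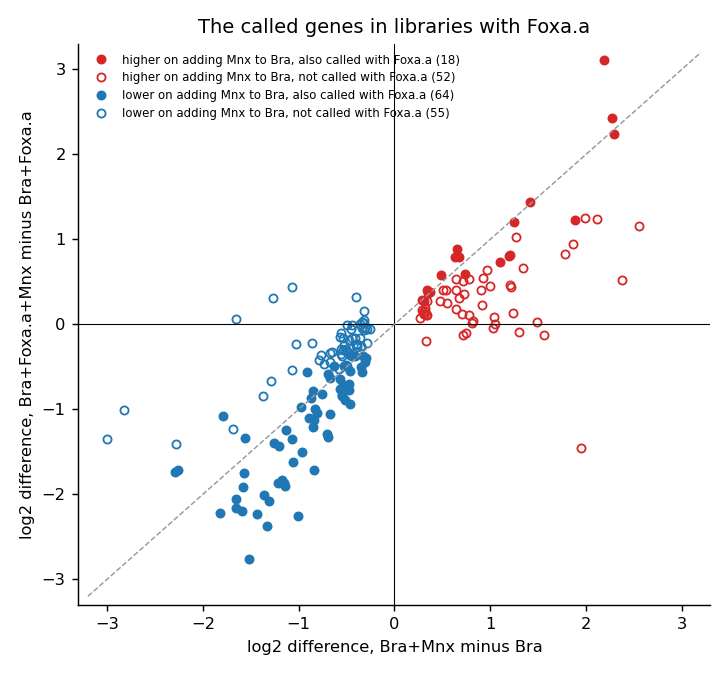
Each of the 189 genes called on adding Mnx to Bra, by its log2 difference in that comparison (x axis) and on adding Mnx to Bra+Foxa.a (y axis), which uses other libraries. Filled points were called in both, 18 higher and 64 lower, and the dashed line marks equal differences. Most points lie at upper right or lower left, where the signs match.

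The change with Mnx was also read in genes moved by Bra and Foxa.a together, which need not be moved by Bra alone. Bra+Foxa.a against control gave 671 genes at least 2-fold higher (4.71% of those tested) and 164 at least 2-fold lower (1.15%), and the difference between Bra+Mnx and Bra uses none of those libraries, although its calls share the estimate of spread. The 671 raised genes did not shift as a whole when Mnx was added to Bra. Their median log2 difference was 0.04, with the middle of the list from -0.34 to 0.35, and the medians within pairs 1, 2 and 3 were 0.00, -0.11 and 0.21. They did hold calls in both directions: 32 rose and 36 fell, or 4.77% and 5.37% of the list against 0.491% and 0.835% of all genes. Of the 36, 25 fell at least 2-fold. With each comparison fitted on its own 6 libraries, 74 rose and 70 fell of 679 raised genes, 10.9% and 10.3% against 0.94% and 1.39% of all genes.

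The raised list was drawn anew in each fit with a library left out, so its members could change. The 32 rises became 7 without Bra replicate 1, 14 without Bra replicate 3, 12 without Bra+Mnx replicate 2 and 6 without Bra+Mnx replicate 3. The 36 falls became 18 without Bra replicate 2, 23 without Bra+Mnx replicate 1 and 21 without Bra+Mnx replicate 2. The median of the list changed sign without Bra replicate 1 (-0.04) or Bra+Mnx replicate 3 (-0.09).

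Most of the 164 lowered genes had a negative difference with Mnx, and few passed the test. By sign 146 were lower in Bra+Mnx than in Bra, or all but 18, where 49.8% of all genes were, with a median of -0.34 and medians within the pairs of -0.28, -0.38 and -0.41, where the medians over all genes were 0.00, 0.02 and 0.00. Of the 164, 11 were called lower (6.71% against 0.835%), none was called higher, and 1 fell at least 2-fold. On separate fits of 6 libraries, 27 of 166 lowered genes were called lower (16.3%, against 1.39% of all genes in those fits). The lowered list, too, was drawn anew in each fit with a library left out. The 11 calls became 0 without Bra replicate 1 or 2 or Bra+Mnx replicate 3, 4 without Bra replicate 3, 1 without Bra+Mnx replicate 2 and 24 without Bra+Mnx replicate 1. The median stayed between -0.45 (without Bra+Mnx replicate 1) and -0.25 (without Bra+Mnx replicate 3) in these fits.

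The 119 falling genes were of more than 1 kind. By Bra+Foxa.a against control, 60 of them were genes raised there, 33 were genes lowered there and 26 were not called, where 10.8% and 8.33% of all genes were raised and lowered, or 19.1% together. The 60 raised genes fell most, with a median of -0.97, and 29 fell at least 2-fold. Their median level was 166 normalised reads in control, 412 in Bra and 198 in Bra+Mnx, and in 16 of the 60 the Bra+Mnx mean was below the control mean. The 33 lowered genes fell by a median of 0.46, and 1 fell at least 2-fold. Their median level was 1343 in control, 1090 in Bra and 875 in Bra+Mnx, and the Bra+Mnx mean was below the control mean in all 33. The order of Bra and Bra+Mnx is set by the call, and the control level was part of what split these classes, so the levels are a description. A call needs a larger fall where the standard error is larger, so the sizes of the falls are a description as well. With Foxa.a present, 54 of the 60, 1 of the 33 and 9 of the 26 were called lower with Mnx, where 1.79% of all genes were. That comparison shares the Bra+Foxa.a libraries with the split, which by itself favours falls among the raised genes, so these counts are a description too.

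The 70 rising genes were mostly genes also raised by Bra+Foxa.a. Of these, 51 were higher in Bra+Foxa.a than in control, 1 was lower, which was Mnx itself, and 18 were not called. Of all genes tested, 10.8% were higher in that comparison and 8.33% lower. The median level of the 51 was 77.7 normalised reads in control, 196 in Bra and 387 in Bra+Mnx. The 18 had a median of 80.7 in control and 224 in Bra+Mnx, and 10 of them rose at least 2-fold, against 17 of the 51. Here too the call sets the order of Bra and Bra+Mnx and control was part of the split, so the levels are a description. The same holds for the 2-fold counts, since the size needed for a call depends on the standard error.

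Each arm was also set against control. Those comparisons share libraries with the one that chose the genes and with each other, so the values are given side by side. Bra against control called 7.63% of all genes, 6.22% higher and 1.41% lower, and Bra+Mnx against control 13.1%, 7.51% higher and 5.55% lower. Of the 70 rising genes, 42 were higher in Bra than in control and 69 in Bra+Mnx, with median log2 differences of 0.60 and 1.56. Of the 119 falling genes, 68 were higher and 16 lower in Bra than in control, and 28 were higher and 47 lower in Bra+Mnx. Their medians were 0.52 in Bra and -0.18 in Bra+Mnx.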

How the data were processed

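Per the labels, RNA came from whole Ciona robusta embryos at Hotta stage 19.5, and libraries were made with a stranded mRNA kit. The authors deposited 4 tables, each with normalised values of the 3 control and 3 treated libraries. Per the file headers these are counts normalised to library size, here treated as a signal. DESeq 1.8.1 and TopHat2 2.9.8b appear in the submitters' processing notes. How reads were counted (strand, overlapping genes, near-identical copies) and on which genome build is not given in the sources used here, so genes with such partners are uncertain. Another 24 columns, regularized logs, were left aside.

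Each column's values were whole multiples of 1 step (100% within a tolerance of 0.01), and dividing by it recovered whole reads. In 2 columns the step was too close to 1 for an automatic check to tell it from rounding. Controls were identical in the 4 tables. Median-of-ratios size factors were computed over the 15 libraries together, and limma 3.58.1 (limma-trend, R 4.3.3) was fitted on log2(value + 1) with group and replicate number, over genes with a mean of at least 1. All 15 libraries entered, since the 6 alone leave 2 residual degrees of freedom, against 8. Counts over lists are descriptions, with no test over the list.

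The replicate numbers, from the sample titles, pair the samples: deviations from group means over 14260 genes correlated at 0.57 to 0.72 in the 3 same-numbered Bra and Bra+Mnx pairs, and at -0.44 to -0.12 in the 6 others. Deviations cancel out within a group, so the negative values follow from the positive ones and are no further evidence of pairing. Replicates within each of the 5 groups differed beyond counting noise (chi-square at least 15 times its degrees of freedom). Alternatives were TMM factors, other pseudocounts and filters, edgeR 4.0.16 and DESeq2 1.42.0 on the recovered reads, no replicate term, the 6 libraries alone, separate fits and leaving libraries out.

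Members, gene lists and identifiers were chosen with earlier results of these data known. Beyond the 16 listed genes, the models named are the 2 largest rises and 2 largest falls among called genes whose higher group averaged 1 CPM or more, with groups that do not overlap and 3 pairs in 1 direction.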

Additional observations from a re-analysis of the deposited data

Results flagged for a closer look

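The change with Mnx differed between embryos with and without Foxa.a in 1 gene model, KH.C7.632. The test of that difference, the change with Foxa.a minus the change without it, gave -1.70 ± 0.20 on the log2 scale (limma, adjusted p = 0.00171). In Bra embryos it was at 78.0, 89.6 and 118 normalised reads and in Bra+Mnx at 97.7, 118 and 135, overlapping groups (0.30 ± 0.14, adjusted p = 0.392). In Bra+Foxa.a it was at 336, 277 and 312 and in Bra+Foxa.a+Mnx at 121, 111 and 116, a fall of 1.40 on the log2 scale in groups that did not overlap (adjusted p = 1.19e-05). Control libraries were at 79.3, 90.3 and 93.9. It is named because it was the 1 gene to pass, after its values were seen. Without the replicate number as a term the test of the difference did not pass (adjusted p = 0.157), nor did it with replicate number 2 left out of every group (0.133).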

How the results depend on the processing

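With no replicate block limma called 2 genes higher and 2 lower, 1 and 1 of them shared with the Foxa.a libraries, and 0 genes in the test between backgrounds (162 at an unadjusted p under 0.05). The shared higher gene was Mnx itself. edgeR with no replicate block, an alternative chosen after seeing the data, gave the same 2, 2, 1, 1 and 0. The 6 libraries alone gave 134 higher and 198 lower with the replicate block, and 0 and 2 without it (limma, 270 at an unadjusted p under 0.05). Separate fits of each comparison's 6 libraries with the block, added after seeing the data, gave the same 134 and 198, of which 51 and 114 were shared with the Foxa.a libraries. DESeq2 with the replicate block called 183 lower. The count of genes that differ between backgrounds became 2 with TMM factors, 3 with a pseudocount of 5, 4 with edgeR and 29 with DESeq2. The other counts under TMM factors, both pseudocounts, both filters, edgeR and DESeq2, with the block, were within 1.5 times the values given, but for the list counts below.

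Leaving out 1 library, or 1 replicate number in every group, gave 13 to 82 genes higher, 21 to 112 lower, 4 to 18 and 14 to 51 shared with the Foxa.a libraries, and 0 to 3 between backgrounds. The median of the lowered list ran from -0.45 to -0.25, and that of the raised list from -0.09 to 0.13. Calls within the lists ran over these and the other settings from 1 to 74 (raised list, higher), 1 to 70 (raised list, lower) and 0 to 27 (lowered list). Both lists were drawn anew in each setting. Under these omissions Hand-r (-0.0144 to 0.0431), Tbx2/3 (-0.0651 to 0.20) and Bra (-0.0089 to 0.41) changed sign, none of them called. KH.C1.36 was not called with replicate number 2 left out of every group (adjusted p = 0.0893). The causes were not tested. With 3 pairs, small changes of genes with few reads were not detectable.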
